A study of Drosophila melanogaster with 6 samples.

Results

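The circadian clock and its outputs were followed through 10 genes, per, tim, vri, Pdp1, Clk, cyc, cry, cwo, to and Pdf, in 6 RNA sequencing libraries of whole fly heads. They were taken by name, and all 10 were found among the 17509 FlyBase gene identifiers counted in every library. The heads came from 4-day-old females of the Drosophila melanogaster strain Canton S, which is wild type. All flies were raised on minimal food at 25 °C and 50% relative humidity, without beta-carotene in the vitamin A deprived group (3 libraries) and with it in the vitamin A replete group (3 libraries). Neither group carried a mutation or transgene named in the labels. The sources used here do not give the hour of collection, the light schedule or the number of flies behind a library. The labels do not say whether each library is its own set of flies, and every p-value therefore reflects sample-to-sample spread that may be technical. The code numbers of the deprived libraries and of the replete libraries come from separate ranges. What the codes stand for is not stated, so anything that went with them cannot be told apart from diet.

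The fly clock is a pair of interlocked transcriptional loops. CLK and CYC, the proteins of Clk and cyc, bind DNA together and switch on per, tim, vri, Pdp1 and cwo. PER and TIM then enter the nucleus and shut CLK and CYC off, while VRI represses and PDP1 activates Clk, and VRI also holds down cry. In flies kept in light-dark cycles, per, tim and vri transcripts are known to peak around the start of the night and Clk and cry transcripts around dawn, so that the per/tim/vri arm and the Clk/cry arm run in antiphase. In heads, the clock ticks in photoreceptors, glia and fat body as well as in a small number of brain neurons, and photoreceptors outnumber the neurons greatly.

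Levels are given as CPM, read counts scaled to a common library size with the TMM method. Total counts were 21344395 to 24165187 in the deprived libraries and 15668307 to 17935321 in the replete libraries. Before TMM scaling, a count of 3 equalled 0.124 to 0.191 CPM. The libraries had the markers of a head, with summed levels of 6 photoreceptor genes at 18410 to 21180 CPM in deprived libraries and 19710 to 21280 CPM in replete ones. Summed levels of 4 neuronal genes were 3450 to 3687 CPM in deprived libraries and 3377 to 3441 CPM in replete ones. Single markers differed between diets within these lists. The photoreceptor arrestin gene Arr2 fell in deprived heads, at 2289, 1791 and 1973 CPM in deprived libraries and 3414, 3675 and 4081 CPM in replete ones (edgeR quasi-likelihood, BH-adjusted p = 0.00272). With Arr2 included, 3 of the 6 photoreceptor markers reached an unadjusted p under 0.05 in the lower direction. The fat body storage protein gene Lsp2 rose in deprived heads, at 1120, 916 and 1213 CPM in deprived libraries and 649, 734 and 540 CPM in replete ones (edgeR quasi-likelihood, BH-adjusted p = 0.0373), and its call was lost in 7 of the 15 alternatives. Summed fat body markers overlapped between diets, at 48730 to 60290 CPM in deprived and 50130 to 54890 CPM in replete libraries. The median log2 fold change of these 6 markers was 0.03. With Lsp2 included, 2 of the 6 reached an unadjusted p under 0.05 in the higher direction and 0 in the lower. Of 5 muscle markers, 0 passed in edgeR, and 3 reached an unadjusted p under 0.05 in the lower direction. Beside these marker counts, 5.13% of all tested genes had such a p in either direction, and 0.330% passed. The part of these markers in the clock values was not tested. Replete libraries 2 and 3 stood apart from the rest. Replete library 3 had 0 counts for 3 of 6 germline markers, osk among them, whereas no germline marker was at 0 in the other 5 libraries. Replete library 2 had 151 CPM of Cyp4g1, a cytochrome P450 gene known from oenocytes, against 1.59 to 5.54 CPM in the other 5 libraries. Mitochondrial and ribosomal RNA genes took 6.87% to 7.42% of counts in deprived libraries and 8.27% to 8.89% in replete ones, and their part in the clock values was not tested beyond a fit without them, in which 0 of the 10 genes passed the edgeR test. In whole heads, fewer cells of a type and less RNA per cell cannot be told apart.

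Each of the 10 clock genes had a wider range among replete libraries than among deprived ones. So did 66.1% of 7606 genes with a mean of 5 CPM or more. The 2 arms of the clock were mostly ordered oppositely across libraries. Replete libraries 2 and 3 were lowest in per, tim and vri and highest in Clk and cry. The transcript of tim covered a 5.19-fold range among the replete libraries and a 1.63-fold range among the deprived ones. Between diets, 0 of the 10 genes passed the edgeR test, with p-values adjusted by Benjamini-Hochberg (BH) and a threshold of 0.05. Mean levels of per, tim, vri, Pdp1 and cwo were higher in deprived heads, and those of Clk, cry, to and Pdf lower. Over all 10896 genes tested, 36 passed (0.330%), with 32 higher (0.294%) and 4 lower (0.0367%).

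**Figure D1:**
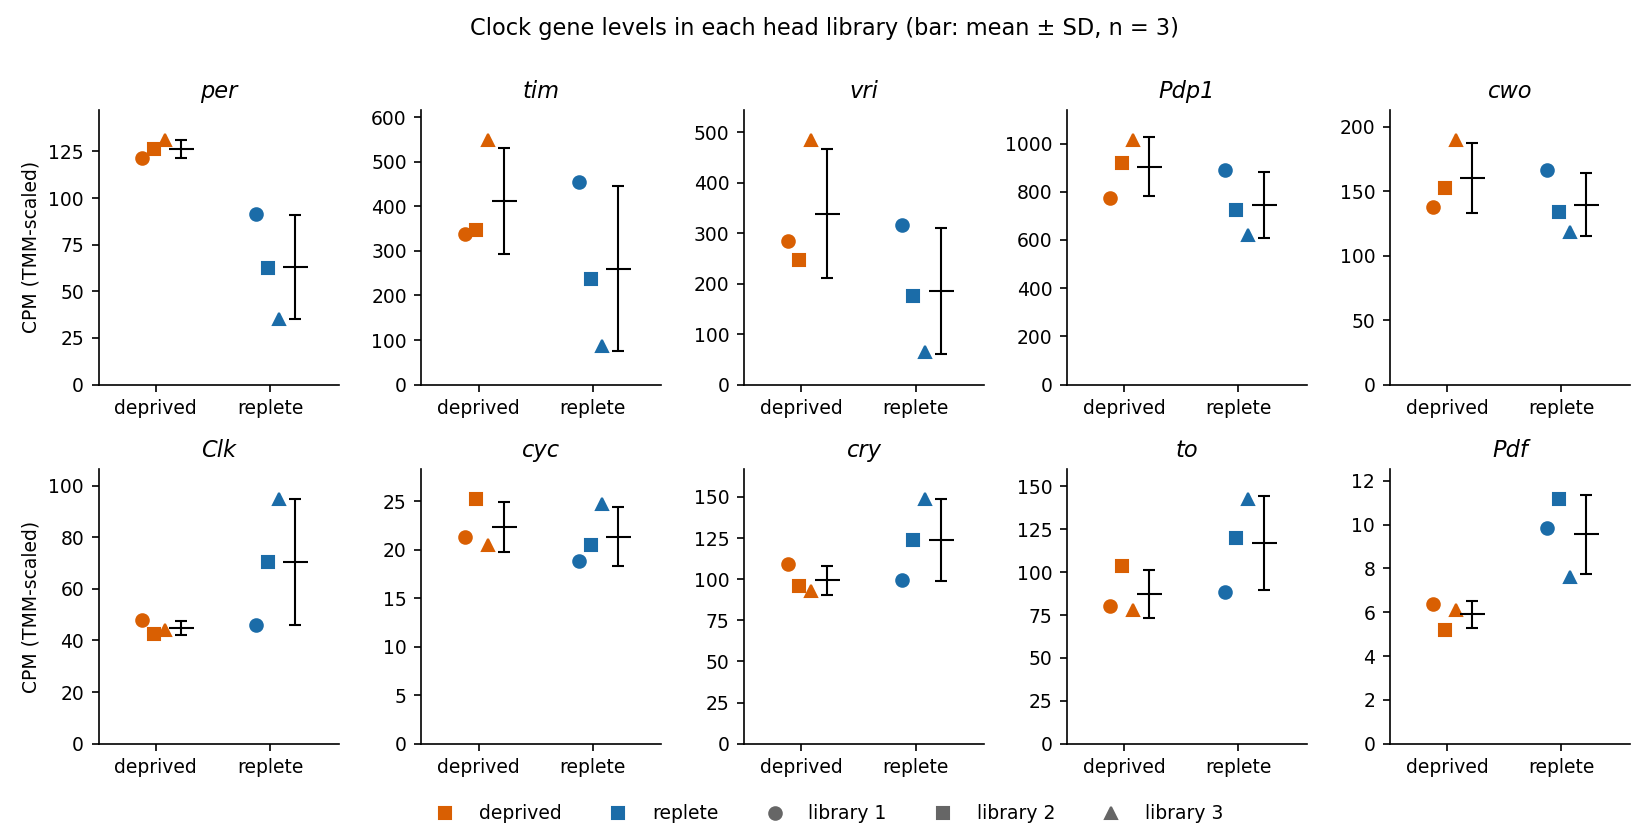
CPM of each of the 10 clock genes (y axes, each starting at 0) in the 3 deprived libraries (orange, left) and the 3 replete libraries (blue, right). Marker shapes give the library number, and black bars the mean ± SD (n = 3). The replete libraries spread from 455 to 87.7 CPM in tim, while per and Pdf are the only panels in which the 2 diets do not overlap.

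The gene period (per) encodes the repressor at the centre of the negative loop. It lies on chromosome X at 2685580 to 2692780 on the plus strand (FBgn0003068, assembly BDGP6.54, protein coding). Its level was 121, 126.4 and 131 CPM in deprived libraries 1, 2 and 3, and 91.2, 62.5 and 35.1 CPM in replete libraries 1, 2 and 3. All deprived libraries lay above all replete libraries, and the deprived values were close together. Means were 126.4 ± 5.001 CPM in deprived heads and 63.0 ± 28.1 CPM in replete ones (SD, n = 3 each), a log2 fold change of 1.01 with a standard error of 0.35 and a 95% interval of 0.12 to 1.90 (edgeR quasi-likelihood test, BH-adjusted p = 0.932). The unadjusted p was 0.0335 in the edgeR model fitted across all genes, so per missed the threshold after adjustment over 10896 genes. Exons of per share 49 bases with dyw on the opposite strand, and dyw had far fewer reads than per.

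The partner of per, timeless (tim), encodes the protein that stabilises PER and is degraded after light reaches CRY. It is on chromosome 2L at 3493986 to 3508119 on the minus strand (FBgn0014396). The level of tim was 338, 348 and 550 CPM in deprived libraries, and 455, 238 and 87.7 CPM in replete libraries. Replete library 1 was above deprived libraries 1 and 2, and replete library 3 was the lowest of all. Means were 412 ± 120 CPM in deprived heads and 260 ± 185 CPM in replete ones, with a 95% interval of -1.15 to 2.48 around a log2 fold change of 0.66 (edgeR quasi-likelihood test, BH-adjusted p = 0.999). The spread within replete libraries was therefore larger than the difference between diets. The lowest tim value still rested on 1425 reads, so counting error was small beside it. Exons of tim share 545 bases with lncRNA:CR46495 on the opposite strand, whose reads cannot be told apart from those of tim if strand was not used.

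The gene vrille (vri), whose bZIP protein represses Clk and cry, followed tim closely. It is on chromosome 2L at 5288944 to 5311223 (FBgn0016076). Its level was 285, 247 and 485 CPM in deprived libraries, and 316, 175 and 64.9 CPM in replete libraries. As for tim, deprived library 3 was highest, replete library 1 came next and replete library 3 was lowest. The log2 fold change of vri was 0.87, with a 95% interval of -0.96 to 2.70 (edgeR quasi-likelihood test, BH-adjusted p = 0.999). Per unit of tim, vri stayed at 0.842, 0.709 and 0.882 in deprived libraries and 0.694, 0.737 and 0.740 in replete libraries as a ratio of CPM. The ratio of per to tim moved more, at 0.359, 0.363 and 0.239 in deprived libraries and 0.200, 0.263 and 0.401 in replete libraries. Of the 2 libraries with the most tim, deprived library 3 and replete library 1, both had less per for each unit of tim than any other library.

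The genes Pdp1 and cwo, also switched on by CLK and CYC, differed in the same direction by smaller amounts. The bZIP activator gene Pdp1 (chromosome 3L, 7811458 to 7867369, FBgn0016694) was at 773, 921 and 1016 CPM in deprived libraries, and 889, 725 and 619 CPM in replete libraries. Its log2 fold change was 0.28 with an interval of -0.03 to 0.59 (edgeR quasi-likelihood test, BH-adjusted p = 0.988). Pdp1 makes several transcript isoforms, of which only some are known to cycle, and the files count the gene as a whole. The transcriptional repressor gene clockwork orange (cwo; chromosome 3R, 10388258 to 10400752, FBgn0259938), which competes for the sites of CLK and CYC, was at 138, 153 and 190 CPM in deprived libraries, and 166, 134 and 118 CPM in replete libraries. For both genes deprived library 3 was the highest and replete library 3 the lowest, and the diets overlapped through replete library 1. The log2 fold change of cwo was 0.20 with an interval of -0.13 to 0.53 (edgeR quasi-likelihood test, BH-adjusted p = 0.999).

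The activator gene Clock (Clk; chromosome 3L, 7763233 to 7775603, FBgn0023076) ran the opposite way. It was at 47.8, 42.3 and 44.2 CPM in deprived libraries, and 46.0, 70.3 and 94.9 CPM in replete libraries. The deprived libraries were alike, replete library 1 was among them, and replete libraries 2 and 3 were above all others. Means were 44.8 ± 2.82 CPM in deprived heads and 70.4 ± 24.5 CPM in replete ones, a log2 fold change of -0.65 with an interval of -1.22 to -0.08 (edgeR quasi-likelihood test, BH-adjusted p = 0.894). Without replete library 1 the log2 fold change of Clk was -0.88 and passed (edgeR quasi-likelihood, BH-adjusted p = 0.0380), and without replete library 3 it was -0.38 (BH-adjusted p = 0.661, edgeR quasi-likelihood). Over the 15 alternatives run, the adjusted p of Clk was 0.0380 to 1.000, and it passed in that single one.

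The gene cryptochrome (cry; chromosome 3R, 19212154 to 19215442, FBgn0025680), the blue-light receptor that resets the clock, followed Clk. It was at 109, 95.8 and 93.0 CPM in deprived libraries, and 99.2, 123.8 and 149 CPM in replete libraries. Replete library 1 lay within the deprived range, and replete libraries 2 and 3 lay above it. The log2 fold change of cry was -0.32 with an interval of -0.62 to -0.02 (edgeR quasi-likelihood test, BH-adjusted p = 0.956). Exons of cry share 9 bases with vib on the opposite strand and 329 bases with lncRNA:CR46393 on the same strand, and whether counting used strand is not given in the sources used here.

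The partner of Clk in the activator pair, cycle (cyc; chromosome 3L, 19813770 to 19815938, FBgn0023094), is known for a transcript that stays level through the day. It was at 21.3, 25.2 and 20.4 CPM in deprived libraries, and 18.8, 20.5 and 24.7 CPM in replete libraries. The ranges of the 2 diets overlapped almost fully. Its log2 fold change was 0.06 with an interval of -0.27 to 0.40 (edgeR quasi-likelihood test, BH-adjusted p = 0.999).

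Of the 2 output genes, takeout (to; chromosome 3R, 25240180 to 25241668, FBgn0039298) encodes a secreted protein that links the clock to feeding and starvation. It was at 80.0, 103 and 78.0 CPM in deprived libraries, and 88.3, 120 and 143 CPM in replete libraries. Replete libraries 2 and 3 were above all deprived libraries, as for Clk and cry. Its log2 fold change was -0.42 with an interval of -0.84 to -0.01 (edgeR quasi-likelihood test, BH-adjusted p = 0.968).

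The neuropeptide gene Pdf (chromosome 3R, 26455462 to 26456141, FBgn0023178), made in the ventral clock neurons and used to keep the clock neurons in step, was the least abundant of the 10 in CPM. It was at 6.39, 5.21 and 6.10 CPM in deprived libraries, and 9.86, 11.2 and 7.63 CPM in replete libraries, from at least 114 reads in each library. All deprived libraries lay below all replete libraries. The means were 5.90 ± 0.613 CPM in deprived heads and 9.56 ± 1.79 CPM in replete ones, a log2 fold change of -0.70 with an interval of -1.18 to -0.21 (edgeR quasi-likelihood test, BH-adjusted p = 0.549). The order of the replete libraries in Pdf, with library 2 highest and library 3 lowest, was the order of neither arm. The summed neuronal markers were slightly higher in deprived heads, at 3590, 3687 and 3450 CPM in deprived and 3377, 3428 and 3441 CPM in replete libraries. The lowest deprived sum was barely above the highest replete one. Of the 4 markers, 1 (elav) did not overlap between diets, against 10.9% of all tested genes. At an unadjusted p under 0.05 there were 0 of the 4. The part of neuron number in the Pdf values was not tested. The Pdf receptor gene Pdfr was at 96.6 ± 8.46 CPM in deprived heads and 91.8 ± 8.82 CPM in replete ones.

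**Figure D2:**
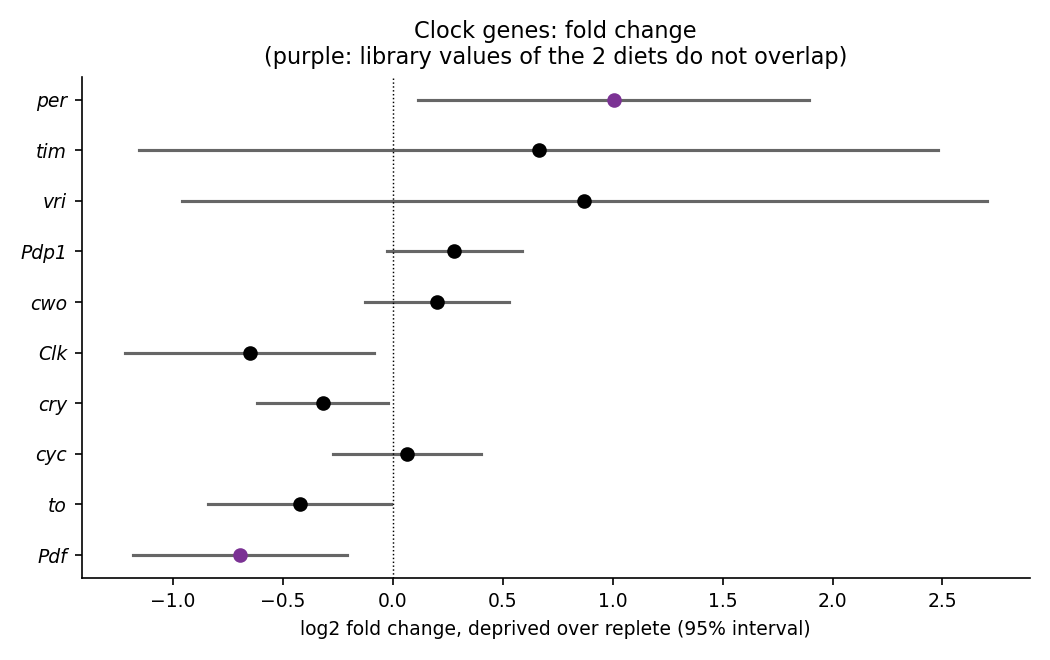
Log2 fold change (x axis, deprived over replete) of each clock gene with its 95% interval from the edgeR quasi-likelihood fit of all genes. Purple points mark per and Pdf, whose library values do not overlap between diets. The intervals of tim and vri are the widest, from -1.15 to 2.48 and from -0.96 to 2.70.

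At an unadjusted p under 0.05, 1 of the 10 genes was higher (per) and 4 lower (Clk, cry, to and Pdf), where 5.13% of all tested genes had such a p. The library values of 2 of the 10, per and Pdf, did not overlap between diets, against 10.9% of all tested genes (5.86% with deprived above and 5.02% with deprived below). DESeq2 and limma-voom called 0 of the 10 genes as well. The median log2 fold change of the 10 was 0.13, beside -0.01 over all tested genes. The intervals leave room for sizeable differences in per, tim and vri, since their upper ends are at 1.90, 2.48 and 2.70 on the log2 scale.

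The relation between the arms was summed up for each library as an index, the mean log2 CPM of per, tim and vri minus the mean log2 CPM of Clk and cry, with 0.5 CPM added. The index was 1.64, 1.79 and 2.34 in deprived libraries 1, 2 and 3, and 1.80, 0.56 and -1.02 in replete libraries 1, 2 and 3. Replete library 1 was between deprived libraries 2 and 3, replete library 2 was lower, and replete library 3 alone was negative. The mean index was 1.93 ± 0.369 in deprived and 0.447 ± 1.41 in replete heads (SD, n = 3 each), a difference of 1.48. The difference is close to the spread among replete libraries and was not tested, because the genes were chosen with earlier results of these data known. Without replete library 3 it was 0.75, and without replete library 1 it was 2.15.

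**Figure D3:**
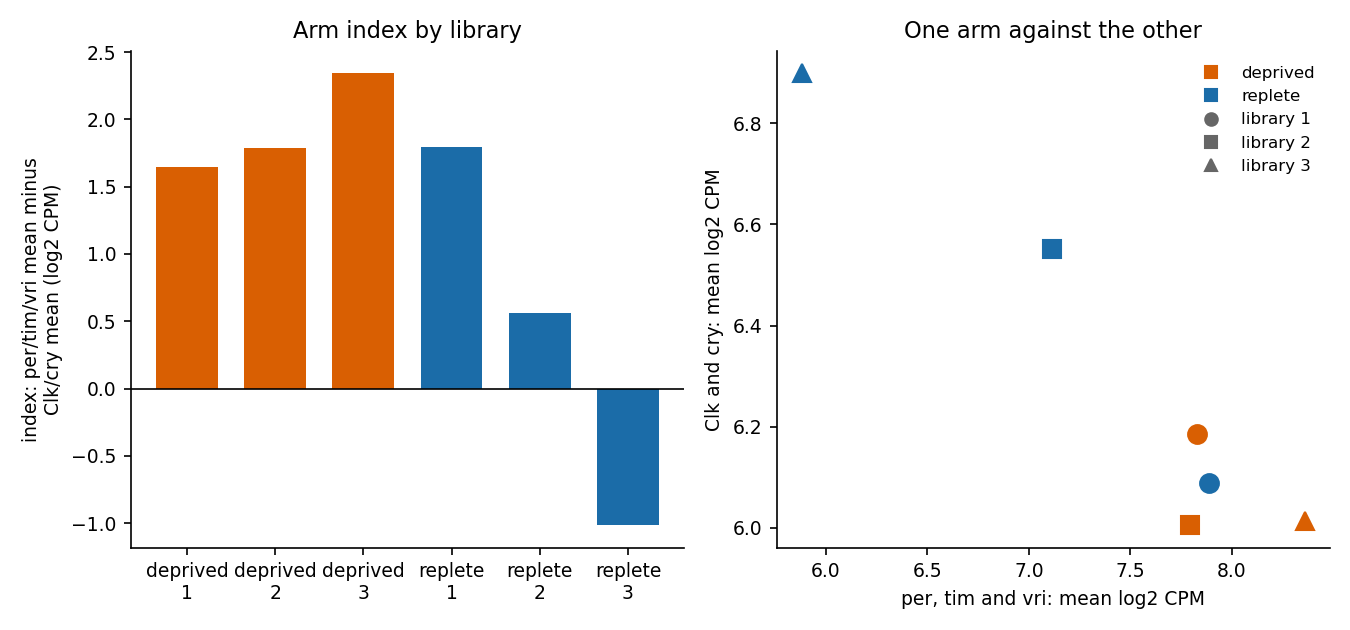
Left, the index of each library (bars, log2 scale), deprived in orange and replete in blue. Right, the mean log2 CPM of Clk and cry (y axis) against that of per, tim and vri (x axis), 1 point per library. The index is -1.02 in replete library 3, and replete library 1 sits among the deprived libraries.

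Over the 6 libraries the arms were mostly opposed, and this rested on replete libraries 2 and 3. Those 2 were lowest in per, tim and vri and highest in Clk and cry. In the other libraries Clk was at 42.32 to 47.85 CPM, and deprived library 2 was lowest there in both vri and Clk. Pair counts were not made over all genes. The 6 libraries give 15 pairs, which share libraries and are therefore a description only. In 13 of 15 pairs the library with more tim had less Clk, and in 14 of 15 it had less cry. The same opposition held for per in 13 pairs with Clk and 14 with cry, and for vri in 12 and 13 pairs. Within an arm the order was shared in 14 of 15 pairs for tim and vri, 13 for per and tim, 12 for per and vri, and 14 for Clk and cry. The gene cwo ordered the 6 libraries exactly as tim did, and Pdp1 ordered them exactly opposite to cry. The output gene to was opposed to tim in 13 pairs and to vri in 14. The transcript of cyc had the order of Clk in 8 of 15 pairs, which is close to an even split.

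In absolute terms the ratio of tim to Clk shows the size of this opposition. It was 7.07, 8.22 and 12.5 in deprived libraries, and 9.90, 3.39 and 0.924 in replete libraries as a ratio of CPM. Replete library 1 lay within the deprived range, and replete libraries 2 and 3 lay below it. The ratio of cry to Clk, 2 genes of the same arm, was 2.28, 2.26 and 2.11 in deprived libraries and 2.16, 1.76 and 1.57 in replete libraries.

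The breadth of these ranges was set beside 7606 genes whose mean was 5 CPM or more. Among replete libraries 46 genes (0.605%) had a wider log2 range than tim, 51 a wider one than vri, 162 a wider one than per and 361 a wider one than Clk. The median gene covered a 1.18-fold range among deprived and a 1.25-fold range among replete libraries. Among deprived libraries vri and tim were also broad, with 1.64% and 5.29% of genes wider, whereas per was narrow, with 82.4% of genes wider. The deprived range of per was 1.08-fold and its replete range 2.60-fold. The ranges of cyc, Pdf, Pdp1, cwo and cry among replete libraries were exceeded by 19.6% to 40.5% of genes.

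**Figure D4:**
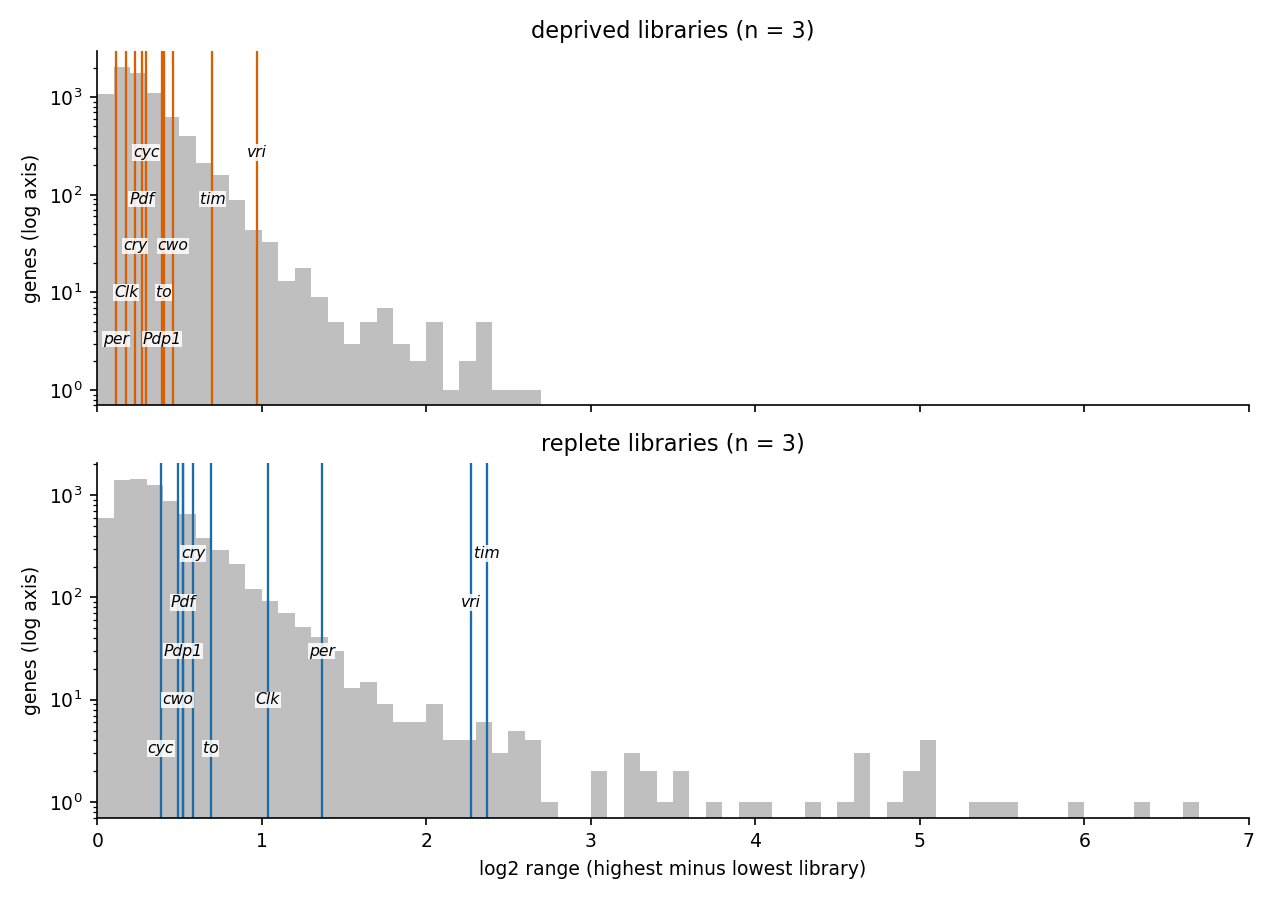
Log2 range between the highest and lowest library (x axis) within the 3 deprived libraries (top) and the 3 replete libraries (bottom) for 7606 genes whose mean was 5 CPM or more (grey, number of genes on a log axis). Coloured lines mark the 10 clock genes. Among replete libraries tim and vri lie in the far tail, with 46 and 51 genes wider.

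Over the 10 clock genes, replete library 1 was nearer to each deprived library than to either other replete library. Its root mean square (RMS) difference in log2 CPM was 0.301, 0.386 and 0.359 from deprived libraries 1, 2 and 3, and 0.526 and 1.24 from replete libraries 2 and 3. Replete library 3 was 0.743 to 1.498 from the other libraries. It was the farthest from each of them except replete library 2, which was farther from deprived library 3 (0.830). Over all 7606 genes, replete library 1 was also nearer to each deprived library than to either other replete library. Its distances were 0.322, 0.297 and 0.341 from deprived libraries 1, 2 and 3, and 0.376 and 0.441 from replete libraries 2 and 3. This nearness is therefore not particular to the clock genes. Over all genes the distances between libraries ran from 0.250 to 0.483, and replete libraries 2 and 3 were the pair farthest apart.

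Germline transcripts had the order of tim among replete libraries. The summed level of 6 germline markers was 127, 175 and 117 CPM in deprived libraries, and 211, 140 and 93.6 CPM in replete libraries, with osk at 7.92, 20.5 and 6.06 CPM in deprived and 39.9, 17.9 and 0 CPM in replete libraries. The replete libraries thus had the same order in the germline sum and in tim. Among deprived libraries the orders differed, since library 2 was highest in the germline sum and library 3 in tim. The part of the germline transcripts in the clock values was not tested.

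Levels of different genes were compared per kilobase of merged exons, averaged over the 6 libraries. The order from high to low was to, Pdp1, cry, vri, tim, cwo, per, cyc, Clk and Pdf, at 81.5, 67.9, 58.9, 55.3, 47.8, 29.4, 20.9, 13.4, 12.8 and 11.4 CPM per kilobase. Every neighbouring pair in this order overlapped over the 6 libraries. In deprived libraries alone, some neighbouring pairs did not overlap. They were Pdp1 (63.7 to 83.7) above cry (49.1 to 57.6) and tim (48.0 to 78.1) above cwo (27.1 to 37.3). So were per (26.8 to 29.0) above cyc (12.6 to 15.5), and cyc above Clk (9.37 to 10.6). In deprived libraries vri reached 71.5 ± 27.03 CPM per kilobase, against 39.1 ± 26.5 in replete libraries, and to reached 69.6 ± 11.3 in deprived against 93.4 ± 21.8 in replete libraries. The 2 activator genes differed in replete library 3, with Clk at 21.0 and cyc at 15.2 CPM per kilobase, and in deprived library 3, where Clk was at 9.78 and cyc at 12.6.

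The genes whose pattern over the 6 libraries was most like that of tim were found by the RMS difference of centred log2 CPM among 7605 other genes. The closest were vri at 0.13 and per at 0.36, both clock genes. After them came Hsp26, a small heat shock protein gene, at 0.37, the cytochrome P450 gene Cyp309a1 at 0.38, the DNA helicase gene Pif1 at 0.41, the ubiquitin protease gene Usp8 at 0.41 and O-fut1, which adds fucose to Notch, at 0.43. Usp8 is counted below both among the regulators, as reported to act on CLK, and, as CG5798, among the genes reported as rhythmic in heads. Its level was 75.2, 67.6 and 70.9 CPM in deprived and 80.5, 53.0 and 29.2 CPM in replete libraries. Like per and tim, Usp8 was lowest in replete library 3. The germline markers osk, nanos and otu shared that low library. Pdp1 came only at place 99 and cwo at place 146, since their ranges were smaller.

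The genes closest to Clk had RMS differences of 0.12 to 0.17. They were CG17646, Ugt36F1, dpp, CG17108 and fw, and cry followed at place 9 with 0.20 and to at place 21 with 0.22. The gene dpp encodes a BMP-type ligand and Ugt36F1 a glycosyltransferase. CG17646 was at 111, 97.9 and 107 CPM in deprived and 113, 135 and 213 CPM in replete libraries, and CG17108 at 2774, 2368 and 2895 CPM in deprived and 3040, 5015 and 4961 CPM in replete libraries. None of the genes near tim or Clk passed the edgeR test between diets. CG17108 passed without replete library 1 (edgeR quasi-likelihood, BH-adjusted p = 0.0126) and in DESeq2, as O-fut1 did in DESeq2. These distances are a description over 6 libraries.

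**Figure D5:**
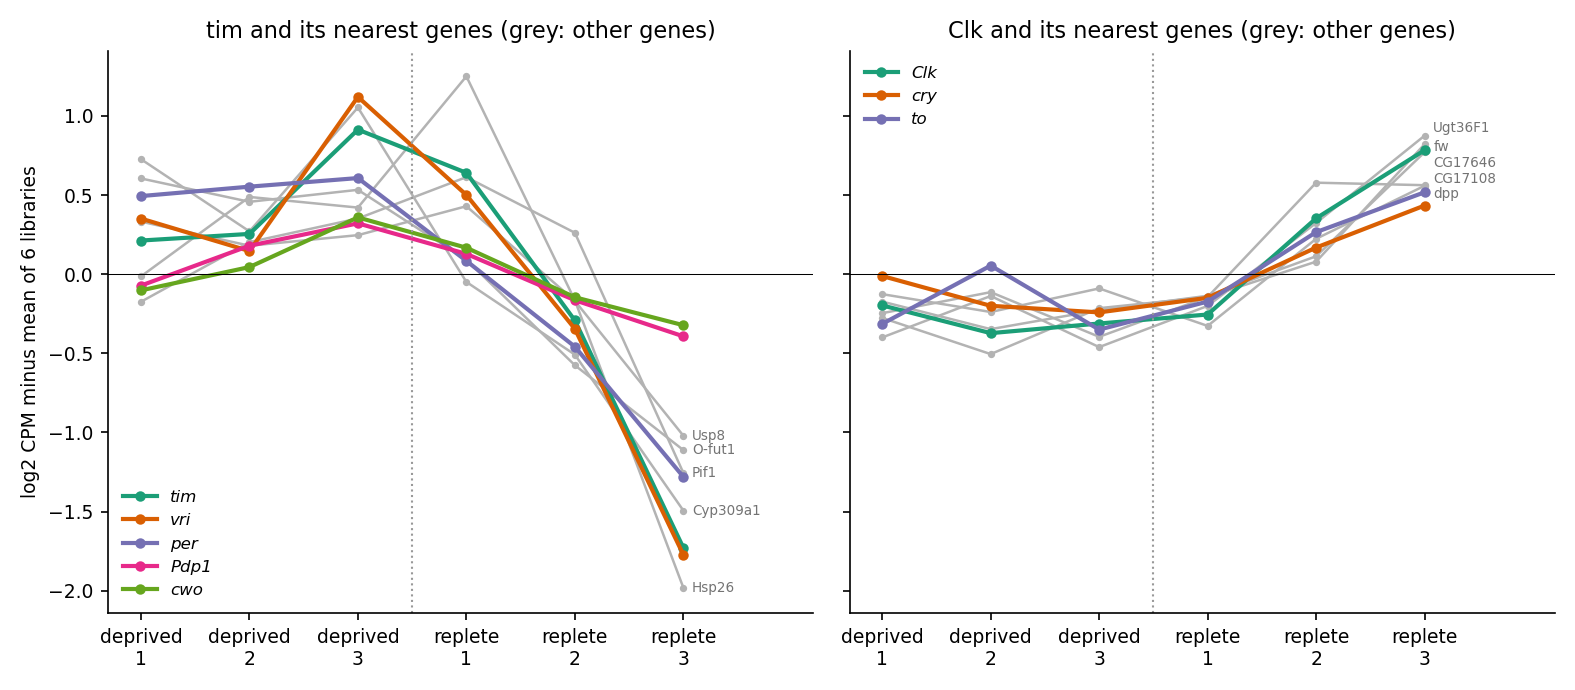
Log2 CPM minus the gene's mean over 6 libraries (y axis) for each library (x axis, deprived left of the dotted line, replete right), with tim, vri, per, Pdp1 and cwo at left and Clk, cry and to at right. Grey lines are the 5 other genes nearest to tim or to Clk, and lines only join the points of 1 gene. Replete library 3 is low at left and high at right, and replete library 1 resembles the deprived libraries.

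Regulators of the clock proteins gave no calls between diets. Of 21 genes for kinases, phosphatases, ubiquitin ligases and other factors that act on PER, TIM or CLK, 0 passed in any of edgeR, DESeq2 and limma-voom, and 1 (4.76%) had an unadjusted p under 0.05, near the 5.13% of all tested genes. Their median log2 fold change was 0.03. That gene was Atx2, needed for the translation of per, at 285 ± 10.4 CPM in deprived heads and 329 ± 29.0 CPM in replete ones. The kinase gene dco, or double-time, which phosphorylates PER, was at 130 ± 6.85 CPM in deprived heads and 139 ± 13.0 CPM in replete ones. The kinase gene sgg, which acts on TIM, was at 560 ± 40.5 CPM in deprived heads and 551 ± 21.2 CPM in replete ones. The phosphatase subunit gene wdb was at 555 ± 9.69 CPM in deprived heads and 495 ± 33.7 CPM in replete ones, with no overlap between diets (edgeR quasi-likelihood, BH-adjusted p = 0.995). Atx2 did not overlap either, which made 2 of the 21, against 10.9% of all tested genes.

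Of 18 neuropeptide, receptor and excitability genes of the clock neuron network, 17 were tested. By edgeR, DESeq2 and limma-voom alike 0 passed, with 0 at an unadjusted p under 0.05. The potassium channel gene Ork1 was at 38.7 ± 3.86 CPM in deprived heads and 51.2 ± 16.0 CPM in replete ones, with 68.0 CPM in replete library 3. The peptide genes Hug and AstC were at 19.4 ± 0.580 and 45.8 ± 6.84 CPM in deprived heads, and 22.3 ± 1.36 and 40.1 ± 5.53 CPM in replete heads. The 9 bHLH-PAS and co-activator genes related to Clk and cyc gave 0 calls in edgeR, DESeq2 and limma-voom, 0 unadjusted p under 0.05 and a median log2 fold change of -0.01.

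Among 11 genes of light or temperature input, 0 passed in edgeR, while 1 was higher and 2 lower at an unadjusted p under 0.05 (5.13% of all tested genes had such a p, and 0.330% passed). The histamine-gated chloride channel gene HisCl1 was at 14.8 ± 1.96 CPM in deprived heads and 7.82 ± 0.887 CPM in replete ones, without overlap (edgeR quasi-likelihood, BH-adjusted p = 0.0963), and it passed in DESeq2 and with no filter on low counts. The gene quasimodo (qsm), of a light response pathway of the clock that does not need cry, was at 24.4 ± 6.43 CPM in deprived heads and 36.4 ± 4.03 CPM in replete ones, also without overlap (edgeR quasi-likelihood, BH-adjusted p = 0.490). The phospholipase C gene norpA was at 1403 ± 35.6 CPM in deprived heads and 1645 ± 82.5 CPM in replete ones (edgeR quasi-likelihood, BH-adjusted p = 0.801).

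Of 14 genes reported as rhythmic in heads outside the core loops, 12 were tested, and trpl, the channel gene of photoreceptors, fell in deprived heads. It was at 395, 409 and 387 CPM in deprived libraries, and 788, 798 and 1112 CPM in replete libraries, a log2 fold change of -1.18 (edgeR quasi-likelihood, BH-adjusted p = 0.00124). In edgeR 11 did not pass, and 2 of the 12 were higher and 4 lower at an unadjusted p under 0.05, trpl included, beside 5.13% of all tested genes (and 0.330% that passed). CG10553 was at 18.7 ± 4.99 CPM in deprived heads and 31.4 ± 5.35 CPM in replete ones and passed only in DESeq2. The potassium channel binding protein gene Slob was at 455, 437 and 428 CPM in deprived libraries, and 411, 327 and 267 CPM in replete libraries (edgeR quasi-likelihood, BH-adjusted p = 0.656). Slob thus had the replete order of per, tim and vri, with library 1 highest and library 3 lowest.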

How the data were processed

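Per the submitters' processing notes, the tools were STAR 2.5.3a, Subread 1.6.2, featureCounts, Trim Galore 0.4.2 and FastQC 0.11.5, with no roles stated. For the genome build, annotation and strand setting, nothing is given in the sources used here. Each deposited file holds the raw read counts of 1 library, a row per gene, not normalized. Positions and exon lengths came from Ensembl release 115 (assembly BDGP6.54), which matched 17389 of 17509 identifiers by gene identifier.

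Genes were kept by filterByExpr (minimum count 10, minimum total 15), and diets were compared with edgeR 4.0.16 (R 4.3.3) and its quasi-likelihood test, with TMM scaling, robust dispersion and diet as the only term. P-values were BH-adjusted over all 10896 tested genes at 0.05. DESeq2 1.42.0, limma-voom (limma 3.58.1), other scalings and filters, non-robust dispersion, removal of 173 mitochondrial and ribosomal RNA genes, a replicate block and leaving out each library were alternatives. Intervals are 95%, and the floor of 3 counts covers counting error only. Replicates differed beyond counting noise (chi-square per degree of freedom 18.1 to 43.4).

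The clock genes and lists were chosen with earlier results of these data known. Named besides the clock genes were up to 3 genes with the smallest p of each list and the 5 genes nearest to tim and to Clk with a mean of at least 5 CPM; dco, sgg, Pdfr, osk, Cyp4g1 and those in the closing observations fall outside that rule and were chosen after their values were seen. Cyp6a21 is not analysed here.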

Additional observations from a re-analysis of the deposited data

How the results depend on the processing

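The direction of the fold change held in all 15 alternatives for 9 of the 10 clock genes, and cyc alone reversed, with log2 fold changes of -0.0357 to 0.184 when 1 library was left out (-0.0357 without deprived library 2, -0.0186 without replete library 1). No clock gene was called higher in any alternative, and 1 (Clk) was called lower without replete library 1. Leaving out 1 library moved the log2 fold change between 0.25 and 1.34 for tim, 0.47 and 1.49 for vri, 0.72 and 1.37 for per, and -0.88 and -0.38 for Clk, with replete libraries 1 and 3 at the ends. The index difference was 0.75 to 2.15 when 1 library was left out, and 1.16 to 1.51 under other pseudocounts, scaling and gene choices. Over all genes, 18 to 32 were higher and 2 to 7 lower when 1 library was left out, DESeq2 gave 60 higher and 25 lower, and no filter on low counts gave 10 lower. Other named genes that reversed when 1 library was left out had log2 fold changes of -0.00649 to 0.177 (repo), -0.169 to 0.0616 (Gs2), -0.0943 to 0.0431 (Eaat1), -1.53 to 0.526 (aub), -0.402 to 1.16 (Hsp26) and -0.327 to 0.488 (Pif1), and vas was at 0.696 in limma-voom. The cause was not tested. Deviations from the group mean correlated at -0.069, -0.005 and 0.202 between the libraries numbered 1, 2 and 3 in each diet. Between libraries of different numbers the correlations were -0.156 to 0.194. With 3 libraries per group, these values cannot decide whether replicate numbers mark a shared batch. With the replicate block, 24 genes were higher and 6 lower, and 0 clock genes were called. Depth limits Pdf most, at 114 to 198 reads per library.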

Other observations

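Of the 46 genes with a wider replete range than tim, 39 were lowest in replete library 3 of all 6 libraries and 34 had replete library 1 above 2 above 3. On the marker list of the germline were 3 (osk, nanos and otu), and many others, such as dhd, yl, wisp, swa, exu and fs(1)N, are also known from ovaries or eggs. A single one, Achl, was on the list of genes reported as rhythmic in heads. Achl was at 89.2, 47.4 and 93.6 CPM in deprived libraries, and 12.4, 43.4 and 69.1 CPM in replete libraries, so that replete library 1 was lowest and deprived library 2 next to replete library 2. Among replete libraries that is the order of Clk and cry. The glycosyltransferase gene Ugt37A3, picked after its values were seen, was at 266, 180 and 272 CPM in deprived libraries, and 132, 65.1 and 23.3 CPM in replete libraries. Its deprived libraries all lay above its replete ones and its replete libraries had the order of per, yet it did not pass between diets (edgeR quasi-likelihood, BH-adjusted p = 0.988). The immune peptide gene Mtk, also picked after its values were seen, was at 4.55, 11.2 and 14.4 CPM in deprived libraries, and 20.2, 3.73 and 2.71 CPM in replete libraries, with replete library 1 again highest among the replete libraries.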
